A study of Homo sapiens with 6 samples.

Results

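Peaks on sequences outside the assembled chromosomes were examined in END-seq libraries of HCT116, an established human colorectal carcinoma line. Members were all peaks of the 8 peak lists whose sequence name was not chromosome 1 to 22, X or Y, which left unplaced contigs (chrUn), contigs assigned to a chromosome without a place on it (random), alternative haplotypes and the mitochondrial DNA (chrM). They numbered 8156 of 4267178 peaks in all 8 lists, and 633 of them lay on chrUn_gl000220, the contig that carries ribosomal DNA. Cells were left untreated or received 10 µM camptothecin (CPT) for 10 min (CPT10) or 20 min (CPT20), with 2 replicates of each. The treatment labels of the samples give 10 µM and 20 µM for the treated groups, whereas the protocol gives 1 concentration and 2 times. The times are used here. Murine pre-B cells were added to the cells as a spike-in. Peak lists of untreated cells were not analysed here, so no value below is a difference from untreated cells. Values of the 4 treated libraries are given in the order CPT10 replicate 1, CPT10 replicate 2, CPT20 replicate 1 and CPT20 replicate 2. Per the study's methods they were biological replicates from 2 experiments.

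END-seq ligates an adapter to DNA ends in agarose-embedded cells and sequences from the end inwards, so a double-strand break (DSB) gives reverse-strand reads on its left and forward-strand reads on its right. CPT traps topoisomerase I on the DNA strand it has cut, and in the nucleolus this enzyme relaxes the ribosomal DNA while RNA polymerase I transcribes it. The ribosomal RNA genes lie in tandem arrays on the short arms of the acrocentric chromosomes, each unit a transcribed region followed by a long intergenic spacer, and the reference holds these arrays only in part. Many of the other contigs are satellite repeats of centromeric or pericentromeric origin. Reads from all cellular copies of a repeat that map to 1 contig pile up there, so more breaks per copy and more copies cannot be told apart.

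The structure of chrUn_gl000220 set where peaks could be read. Aligned to itself, the 161802-base contig held a stretch of 16282 bases at 101549 to 117830 again at 145519 to 161802, with 99.92% identity over 16288 aligned columns. A match to the transcript RNA5-8SP6, a pseudogene of the 5.8S ribosomal RNA, at 112025 to 112173 on the plus strand (94.6% identity) and again at 155997 to 156145 placed part of the transcribed region within both copies. MIR3648, a microRNA gene annotated in ribosomal DNA, matched at 107909 to 108088 and at 151881 to 152060 with 98.9% identity. The second copy ends at the last base of the contig, so the copies are not a whole unit and their ends do not mark those of the transcribed region or of the intergenic spacer. Between the copies lay 27688 bases, called the inter-copy stretch here, and to the left of the first copy lay 101548 bases. No gene annotation of these contigs was given, so these landmarks rest on sequence matches alone.

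The forward peak of the inter-copy stretch had its summit in the window below, which is shown because all 4 libraries placed it there. Capitals mark GGTCGACC, the palindromic core of the Sal box, at which the termination factor TTF1 halts RNA polymerase I. Sequences here and below are from GRCh37, plus strand, 5′ to 3′.
chrUn_gl000220:119110-119409: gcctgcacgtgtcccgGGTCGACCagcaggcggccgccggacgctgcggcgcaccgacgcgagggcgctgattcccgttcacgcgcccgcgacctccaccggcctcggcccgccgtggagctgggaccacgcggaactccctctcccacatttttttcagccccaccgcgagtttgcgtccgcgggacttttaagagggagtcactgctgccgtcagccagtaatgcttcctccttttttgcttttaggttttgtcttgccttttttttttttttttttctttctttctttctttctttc

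The core GGTCGACC occurred 11 times on the contig, with 7 of these in the inter-copy stretch between 118808 and 119849. Of 9451953 windows of 300 bases on chromosomes 1 to 22 and X, 0.0174% held it, and of 20336 windows on unplaced and random contigs 0.0541% did. The motif is its own reverse complement, so both strands were searched at once. Forward summits lay 133 to 150 bases after the nearest upstream copy of the motif and 413 to 430 bases before the next one. A match describes the letters of the window and does not show a bound site. The 7 motifs of this stretch stand close together, so any position among them lies near one. Whether the summits lie nearer than other positions there was not tested.

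The inter-copy stretch was covered from end to end by 1 peak in each of the 8 lists, which began inside the first copy and ended 253 to 358 bases into the second. The fold enrichment of a summit, as deposited, is its height over the expected height of the list, each with 1 added, and the expected height is the same at every position. Forward fold was 3053, 2774, 2572 and 2507. Both 20 min values lay below both 10 min values, at a mean of 2540 ± 45.4 against 2913 ± 198 (SD, n = 2 each), a log2 difference of -0.20. The exact permutation test of 2 against 2 libraries gave p = 0.333, the smallest it allows. Within replicate numbers the forward fold at 20 min was 0.842 and 0.904 times that at 10 min. Forward summit heights were 7456, 4808, 5738 and 4674, and the expected heights 1.44, 0.734, 1.23 and 0.864. The added 1 thus weighs differently in each library. Without it, these heights over their expected heights do not separate the times. Reverse fold was 582, 460, 579 and 486. The reverse values of the times overlapped (exact permutation p = 1).

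Forward summits of the inter-copy peak lay at 119261, 119276, 119259 and 119260, 1429 to 1446 bases after the end of the first copy. Reverse summits lay at 145456, 145465, 145456 and 145456, at the opposite edge. The forward fold exceeded the reverse fold 5.25, 6.03, 4.44 and 5.16 times, on average 5.22 ± 0.647 times (SD, n = 4), and an exact sign-flip test over the 4 libraries gave p = 0.125, the smallest it allows. Among all peaks of its list the inter-copy peak ranked 2 to 4 by forward fold and 7 by reverse fold. Its forward fold was 0.492 to 1.05 times the highest fold on any assembled chromosome.

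**Figure D1:**
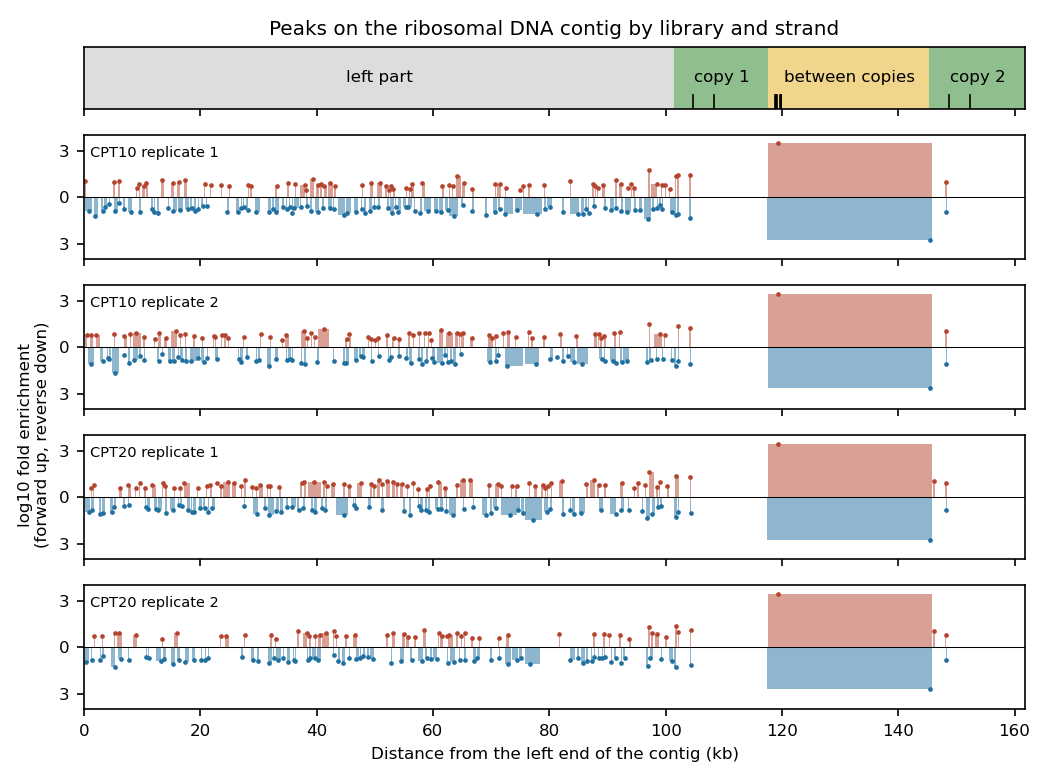
Peaks on chrUn_gl000220 in the 4 libraries, with the log10 fold enrichment of each peak (forward upwards, reverse downwards, shading over the peak's extent and a dot at its summit) against the distance from the left end of the contig in kb. The top bar shows the left part, the 2 near-identical copies and the inter-copy stretch, with ticks at the 11 GGTCGACC motifs, and the copies hold 1 to 3 peaks per list while 1 peak per strand fills the inter-copy stretch.

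Inside the copies peaks lay where the copies differ. The copies differed in 13 aligned columns at 5 places, all between 101749 and 104274 of the first copy, and no difference followed in the last 13556 bases of that copy, which hold the match to the 5.8S ribosomal RNA. No summit lay in the first copy beyond 104284, that is more than 10 bases past the last difference. The 31 summits within a copy in the 8 lists all lay within 13 bases of such a difference, with a median of 4 bases. Of the positions of the first copy, 6.35% lie within 150 bases of a difference. The authors kept only reads mapped with high confidence, and this filter's part in the gap was not tested.

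The leading recurrent element in the copies is printed below from both, with capitals on the bases that differ between them, 5 bases of copy 1 and 1 of copy 2 in a run of CTCC repeats.
copy 1, chrUn_gl000220:104206-104355: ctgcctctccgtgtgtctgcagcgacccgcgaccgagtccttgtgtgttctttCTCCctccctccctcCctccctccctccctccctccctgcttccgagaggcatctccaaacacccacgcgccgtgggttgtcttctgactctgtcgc
copy 2, chrUn_gl000220:148182-148327: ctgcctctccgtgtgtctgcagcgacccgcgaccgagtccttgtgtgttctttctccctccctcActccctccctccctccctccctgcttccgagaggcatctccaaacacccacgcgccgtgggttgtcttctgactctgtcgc
In copy 1 the 8 summits of this element lay between 104271 and 104284, with forward folds of 12.3 to 24.6 and reverse folds of 10.5 to 22.8. In copy 2 they lay between 148222 and 148254, with forward folds of 6.44 to 11.0 and reverse folds of 7.0 to 11.6. The forward ranges of the copies did not overlap and the reverse ranges did. Over the earlier differences of copy 1 the highest summit of each list lay between 101745 and 102176, with forward folds of 22.4 to 27.0 and reverse folds of 15.4 to 19.5.

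The part of the contig left of the first copy held 594 of the 633 peaks, 49 to 93 in a list. They covered 18.2% to 47.9% of these bases. Peaks there numbered 160, 153, 155 and 126. Per megabase this was 3.16, 4.07, 3.55 and 6.13 times the density of chromosomes 1 to 22 and X, at a mean of 4.23 ± 1.33 (SD, n = 4). It exceeded 1 in every library (exact sign-flip p = 0.125, the smallest it can give). Transcripts that matched in this left part, among them HIF1A-AS3, RTCA-AS1 and LINC02895, included no ribosomal RNA. Whether it is ribosomal DNA was not tested, so values of the whole contig are not those of ribosomal DNA alone. The whole contig stood at 2.83 ± 0.914 times the chromosomes (exact sign-flip p = 0.125). By bases covered by peaks it stood at 9.52 times, and by peaks whose −log10 q reached 10 at 20.7 times. Its best ranked cluster outside the copies and the inter-copy stretch ran from 96297 to 99446. There the forward folds were 59.0, 31.1, 43.5 and 20.4, again overlapping between times.

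Peaks on contigs were taller than those of the lists as a whole. A −log10 q of at least 10 was reached by 864 of 2566 contig peaks (33.7%) in CPT10 replicate 1, where 15.5% of all peaks reached it. It was reached by 282 of 2015 (14.0%) against 2.17% in CPT10 replicate 2, by 604 of 2151 (28.1%) against 11.6% in CPT20 replicate 1 and by 245 of 1424 (17.2%) against 2.92% in CPT20 replicate 2. On chrUn_gl000220 alone the shares were 47.1%, 27.2%, 41.2% and 23.5%. In each library the 95% Wilson interval of the contig share, which covers counting error only, lay above the share of all peaks.

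The number of peaks on contigs followed the size of the lists. They were 0.181% of peaks in CPT10 replicate 1 (95% Wilson interval 0.174 to 0.188), 0.192% in CPT10 replicate 2 (0.183 to 0.200), 0.176% in CPT20 replicate 1 (0.169 to 0.184) and 0.248% in CPT20 replicate 2 (0.235 to 0.261). CPT20 replicate 2, with the highest share, also had the smallest lists, 575098 peaks against 1051610 to 1418625. The mean share was 0.186 ± 0.00759% at 10 min and 0.212 ± 0.0506% at 20 min (SD, n = 2 each), a log2 difference of 0.19 (exact permutation p = 1). Without CPT20 replicate 2 the difference was -0.08. For chrUn_gl000220 the share was 0.0120%, 0.0154%, 0.0135% and 0.0236%, with a log2 difference of 0.44 (exact permutation p = 0.667), which became -0.02 without that library. The times were not told apart in either share.

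The classes of contig differed by far more than the libraries did. Unplaced contigs held 62.8% of the contig peaks and random contigs 35.2%, on 35 and 15 listed sequences. Another 9 of the 59 such contigs of the reference had no peak in any list. The 8 haplotype sequences, alternative versions of chromosomal regions, held 158 peaks or 1.94%, although the highest peak ends on them add up to 27.4 Mb. Their density was 0.00363 ± 0.000958 times that of the chromosomes (SD, n = 4). Over all contigs except chrM the density was therefore 0.172 ± 0.0285 times that of the chromosomes, below 1 in all 4 libraries (exact sign-flip p = 0.125). Among peaks whose −log10 q reached 10 it was 0.762 (exact sign-flip p = 0.5). Over the 50 unplaced and random contigs with a peak it was 1.02 ± 0.175, above 1 in 1 library (exact sign-flip p = 1). Over all 59, including those without a peak, it was 0.909 ± 0.156 (exact sign-flip p = 0.25). The value for all contigs was thus set by the haplotypes, each of which has a counterpart on a chromosome.

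Among single contigs, 16 of the 25 unplaced and random contigs with at least 10 peaks in every library exceeded the density of the chromosomes in all 4 libraries. The limit on peak number removes sparse contigs, so this count does not describe unplaced and random contigs as a whole. The 6 with the most peaks, chrUn_gl000224, chr7_gl000195_random, chrUn_gl000225, chrUn_gl000220, chr17_gl000205_random and chrUn_gl000219, held 4019 peaks or 49.3% of the total. The density was highest on chrUn_gl000226, at 1116 ± 99.9 peaks per Mb (SD, n = 4), on a contig of 15008 bases with 18, 18, 16 and 15 peaks. On chrUn_gl000224, with 228, 200, 212 and 145 peaks, it was 1092 ± 201 per Mb. On chr7_gl000195_random, with 213, 197, 180 and 172 peaks, it was 1042 ± 99.9 per Mb. chrUn_gl000232 reached 996 ± 277, chrUn_gl000220 978 ± 93.9 and chrUn_gl000234 968 ± 215 per Mb, so these neighbours in the order did not differ beyond their spread. The chromosomes stood at 375 ± 127 per Mb.

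**Figure D2:**
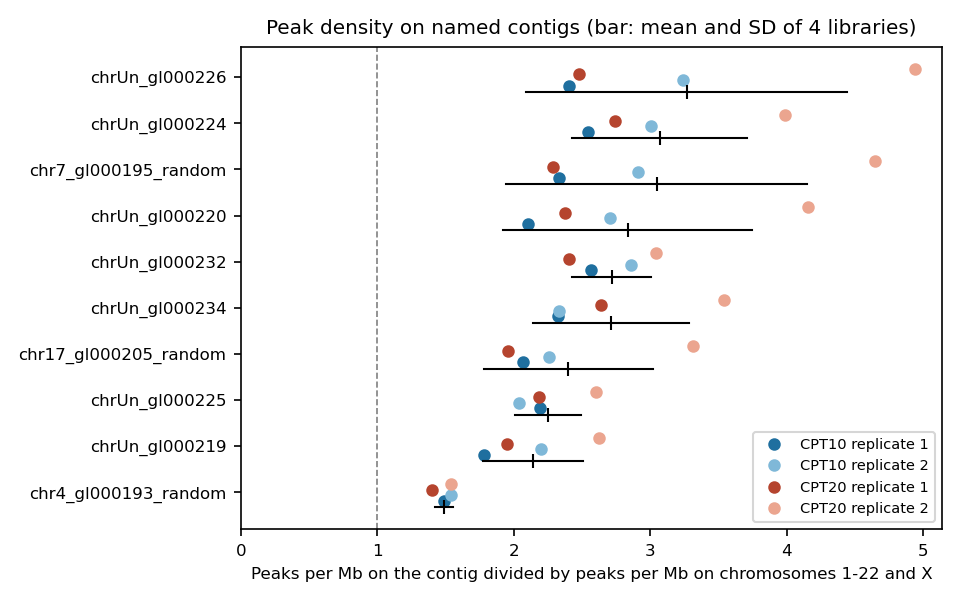
Peaks per Mb on each named contig divided by peaks per Mb on chromosomes 1 to 22 and X, with a point per library and the mean with SD of the 4 libraries as a bar below. The contigs were named by peak number, density or change in share, a choice that favours dense ones. All points lie above 1, and CPT20 replicate 2, the library with the smallest lists, gives the highest point for all contigs shown but chr4_gl000193_random.

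Of 9 contigs with at least 50 peaks in every library, 8 had a higher mean share at 20 min than at 10 min. Without CPT20 replicate 2 this held for 1 of the 9, and within replicate 1 for 3. The highest log2 difference was that of chrUn_gl000220 at 0.44 and the lowest that of chr4_gl000193_random at -0.04. On the latter the share was 0.00994%, 0.0103%, 0.00933% and 0.0103%, and the times overlapped.

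Folds at 20 min were compared with those at 10 min where all 4 libraries had a peak. Of 209 such forward regions on contigs, 33 (15.8%) had both CPT20 folds below both CPT10 folds against 13.4% of all 11539 forward regions, and 27 (12.9%) had both above against 18%. Of 192 reverse regions, 38 (19.8%) were lower against 12.6% of all 13740 reverse regions and 27 (14.1%) were higher against 18.1%. On chrUn_gl000220, 6 of 24 forward and 8 of 37 reverse regions were lower, and 3 of each were higher. The 95% Wilson intervals included the share of all regions for the forward lower calls (11.5% to 21.3%), the forward higher calls (9.03% to 18.1%) and the reverse higher calls (9.85% to 19.7%). For the reverse lower calls the interval was 14.8% to 26.0%, which did not include the 12.6% of all reverse regions. These intervals cover counting error over regions only. All regions come from the same libraries, so the spread between replicates of a time is not covered and no difference between times follows. The calls use the deposited folds. Whether they hold for heights over expected heights was not tested.

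DSB sites were formed, after the study, by joining a reverse peak to its closest forward peak at a distance of 0 to under 150 bp. On contigs there were 494 and 324 sites at 10 min and 380 and 213 at 20 min. The means were 409 ± 120 and 297 ± 118 (SD, n = 2 each), a log2 difference of -0.46 (exact permutation p = 0.667). The groups overlapped. Sites on contigs recurred in the other replicate of their time more often than sites in general. The counts were 168 of 494 (34.0%) in CPT10 replicate 1 against 4.08% of all sites, 170 of 324 (52.5%) in CPT10 replicate 2 against 7.78%, 128 of 380 (33.7%) in CPT20 replicate 1 against 3.65% and 128 of 213 (60.1%) in CPT20 replicate 2 against 17%. On chrUn_gl000220 the shares were 63.5%, 60.4%, 46.7% and 71.0%, of 31 to 52 sites. An overlap of 1 bp was enough, and contig peaks were wider, with median widths of 214 to 270 bp in a list against 183 to 219 bp on chromosomes. How often sites would overlap by width and density alone was not tested, here or for the clusters below.

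Clusters are replicated sites merged over replicates, called persistent where they occurred at both times, transient at 10 min only and late at 20 min only. Contigs held 75 of 931 persistent clusters (8.06%), 65 of 2958 transient ones (2.197%) and 32 of 1899 late ones (1.69%). chr7_gl000195_random had 16 persistent clusters, chrUn_gl000220 had 13 and chr9_gl000199_random had 12. On chrUn_gl000220 another 12 were transient and 5 late. Each persistent cluster was placed by the library in which its −log10 q ranked lowest, and 18 of the best 100 lay on contigs. The 75 persistent clusters include 1 on chrM, where a peak spans nearly the whole sequence. The 13 of chrUn_gl000220 include the inter-copy peak, a cluster of 28420 bases with a worst rank of 6. Its forward summits lie left of its reverse summits, opposite to the sides described above for a DSB.

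Reverse and forward peaks that do not overlap were also counted by their order within 150 bp, since a 2-ended break puts the reverse peak first. On contigs the reverse peak came first 73, 56, 66 and 37 times and the forward peak 68, 48, 74 and 34 times. The ratio averaged 1.06 ± 0.116 (SD, n = 4) and exceeded 1 in 3 libraries (exact sign-flip p = 0.5). On the chromosomes it averaged 1.07 ± 0.0581 and exceeded 1 in all 4 (exact sign-flip p = 0.125). The counts on contigs allowed ratios from 0.773 to 1.49 in CPT10 replicate 1 alone (95% Wilson interval), so a preference of the size seen on the chromosomes was not detectable at this depth.

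Among contigs other than chrUn_gl000220 and chrM, the best ranked clusters lay on chrUn_gl000226, chrUn_gl000224 and chr9_gl000199_random. Windows at 2 leading clusters of chrUn_gl000226 are printed because they stand at nearly the same base of the repeat unit, 177 and 190, in different units, and that of chr9_gl000199_random because it led on another contig. No capitals are set, since neither GGTCGACC nor the CENP-B box pattern described below occurred in them.
chrUn_gl000226:102-251: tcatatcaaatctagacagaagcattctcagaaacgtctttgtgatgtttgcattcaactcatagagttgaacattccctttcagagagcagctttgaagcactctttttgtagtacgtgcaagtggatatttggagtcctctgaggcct
chrUn_gl000226:6935-7084: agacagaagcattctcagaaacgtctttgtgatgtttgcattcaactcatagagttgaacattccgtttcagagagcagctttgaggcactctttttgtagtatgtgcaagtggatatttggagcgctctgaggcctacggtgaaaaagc
chr9_gl000199_random:160704-160853: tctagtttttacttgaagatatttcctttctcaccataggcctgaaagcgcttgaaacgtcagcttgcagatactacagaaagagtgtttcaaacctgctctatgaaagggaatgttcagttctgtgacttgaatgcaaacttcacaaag

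chrUn_gl000226 matched itself at 98.9% of bases when shifted by 1364 bases, and held 11.0 such units. This is the arrangement of a higher-order alpha satellite array, the repeat on which human centromeres form. The CENP-B box, bound by a centromere protein, was searched on both strands as TTCG, 4 bases, A, 2 bases and CGGG. It occurred 44 times on chrUn_gl000226, all on the plus strand, and 275 times on chr9_gl000199_random, all on the minus strand. Of the 300-base windows on unplaced and random contigs 1.72% held it, and 0.0193% of those on the chromosomes did.

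The peaks of chrUn_gl000226 fell into 11 regions, and 6 of these were present in all 8 lists. The strongest, at 6727 to 7236, had forward folds of 233, 141, 270 and 181 and reverse folds of 291, 183, 251 and 198. Both sets of folds overlapped between the times (exact permutation p = 0.667 forward and 1 reverse). The next, at 14087 to 14586, had forward folds of 138 to 214 and reverse folds of 70.6 to 115. The cluster at 16 to 388 had 92.3 to 136 and 81.8 to 110. The 3 clusters stood at bases 190, 697 and 177 of the repeat unit counted from the left end of the contig. The remaining regions stayed at or below 56.9-fold. Among them, that at 9599 to 9838, with summits at base 167 of its unit, had forward folds of 12.3 to 29.9.

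**Figure D3:**
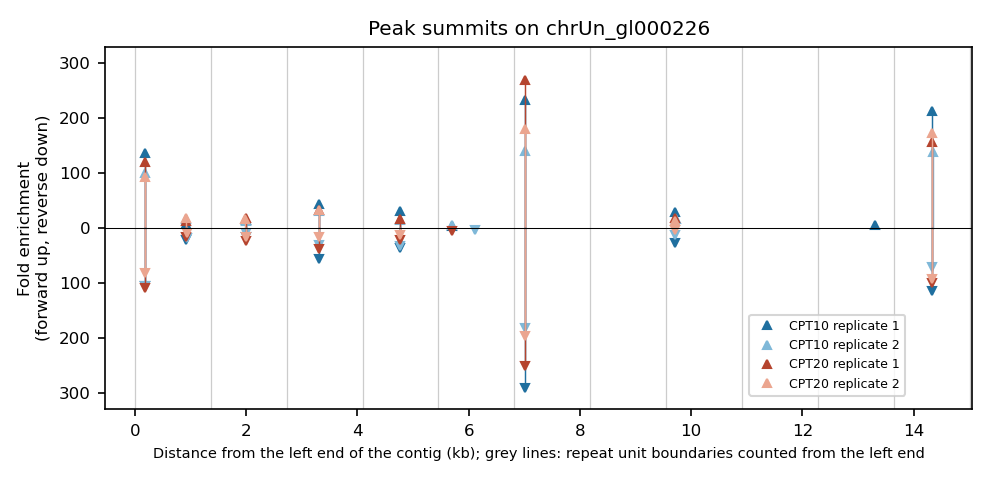
Fold enrichment of each peak summit on chrUn_gl000226 (forward upwards, reverse downwards, a colour per library) against the distance from the left end of the contig in kb, with grey lines every 1364 bases. In 6 of the 11 regions forward and reverse summits stand at the same place in all 4 libraries, and 3 of these exceed the rest.

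At these places the forward and reverse summits coincided. The 8 summits of the strongest region lay within 4 bases of each other, at 7008 to 7012, and those of the other leading clusters of the contig within 4 bases as well. On chr9_gl000199_random the 8 summits lay at 160772 to 160779, with forward folds of 74.4 to 188 and reverse folds of 48.6 to 118. On chrUn_gl000224 those of the leading cluster spread over 117 bases. Among overlapping forward and reverse peaks that both reached a −log10 q of 10, summits lay within 20 bases of each other in 31.1%, 59.3%, 39.8% and 54.5% of 132, 54, 98 and 44 pairs on contigs. On the chromosomes the shares were 7.45%, 17.5%, 5.75% and 12.7%. The difference averaged 35.3 ± 8.60 percentage points (SD, n = 4) and was positive in all 4 libraries (exact sign-flip p = 0.125, the smallest possible). This measure was chosen after the summits had been seen.

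Peaks of some contigs leaned to 1 strand. Forward peaks were 41.7% of peaks on the chromosomes in CPT10 replicate 1 and 50.1% to 50.2% in the other libraries. On chrUn_gl000216 they were 58.4%, 75.5%, 66.4% and 76.2%, on average 21.1 ± 5.30 points above the chromosomes (SD, n = 4). On chrUn_gl000219 they were 18.5 ± 6.94 points above and on chrUn_gl000224 17.8 ± 7.92 points above. On chr17_gl000205_random they were 40.6%, 34.2%, 41.5% and 36.8%, on average -9.77 ± 6.51 points from the chromosomes. Each of these 4 contigs lay on its side in all 4 libraries, as did chr7_gl000195_random (3.26 ± 3.27 points) and chrUn_gl000225 (-3.35 ± 3.34 points), with an exact sign-flip p of 0.125, the smallest possible. In all 9 contigs were compared. On chrUn_gl000220 the difference was -2.88 ± 4.95 points (exact sign-flip p = 0.5). Over all contigs the forward share was 2.94 ± 0.895 points above that of the chromosomes (exact sign-flip p = 0.125).

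**Figure D4:**
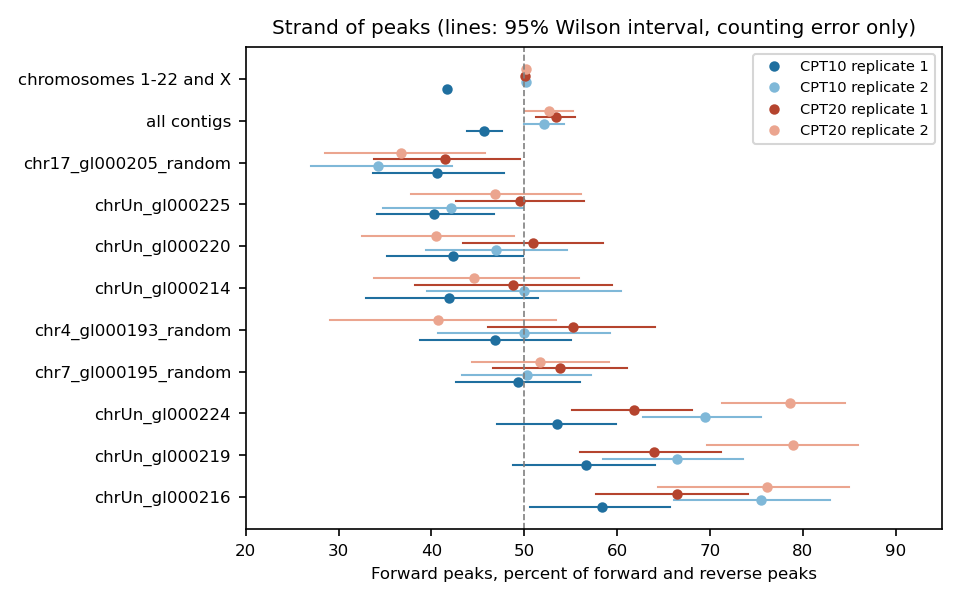
Forward peaks as a percent of forward and reverse peaks on the chromosomes, on all contigs and on the 9 contigs with at least 50 peaks in every library, with a point per library and its 95% Wilson interval. The points of chrUn_gl000216, chrUn_gl000219 and chrUn_gl000224 all lie above 50% and those of chr17_gl000205_random all below.

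On chrUn_gl000216 the lean was larger in its satellite part. This contig held ATTCC, the unit of some human satellite repeats, 6903 times on the plus strand and its reverse complement GGAAT 78 times. In the 48.2% of the contig with at least 10 copies of ATTCC per 300 bases, forward peaks were 211 and reverse peaks 59 over the 4 libraries. The forward share there was 66.0%, 85.2%, 82.9% and 87.2%. In the rest of the contig it was 47.8%, 59.5%, 40.8% and 58.3%, lower in each library. chrUn_gl000224, chrUn_gl000219 and chr17_gl000205_random each matched themselves best when shifted by 48 bases, and whether these repeats are the same was not tested. In chrUn_gl000224 the forward share averaged 66.3% within its repeat and 65.9% outside it, and in chrUn_gl000219 62.6% and 67.0%. In chr17_gl000205_random 69 forward and 125 reverse peaks lay within it and 158 and 238 outside it, so in none of them was the lean limited to the repeat. The share of GGAAT, in either orientation, was 49.3% of 300-base windows on unplaced and random contigs and 46.2% on the chromosomes. TTAGGG, the telomere repeat unit, occurred in 8.97% and 10.4% of them on either strand.

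The mitochondrial DNA was the highest peak of all 8 lists. It was listed as a single peak per list over the 16571 bases of chrM, or all but 1 of them. That sequence is 2 bases longer than the chrM of the reference used here, so its positions were not annotated. Forward fold was 185479, 80318, 130450 and 56706. Reverse fold was 96464, 38703, 55780 and 28211. At 20 min the forward fold was 0.703 times that at 10 min in replicate 1 and 0.706 times in replicate 2, and the reverse fold was 0.578 and 0.729 times. Replicates of a time differed more than that, and across all libraries the times overlapped (exact permutation p = 0.667 on each strand). These comparisons use the deposited fold, in which the added 1 weighs differently in each library, so the size of the ratios depends on it. The forward summit heights were 453012, 139249, 291108 and 105723, over the forward expected heights given above for the inter-copy peak. Forward fold was 2.09 ± 0.179 times the reverse fold (SD, n = 4), above it in all 4 libraries (exact sign-flip p = 0.125). Forward summits lay at 5839 in 3 libraries and at 5822 in CPT10 replicate 2. Reverse summits lay at 106 to 109 in 3 libraries and at 16040 in CPT20 replicate 1.

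**Figure D5:**
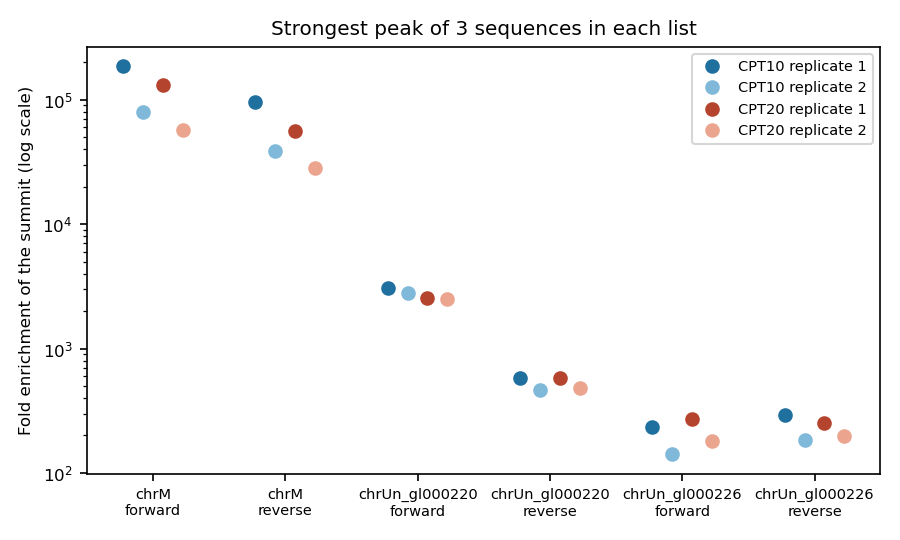
Fold enrichment of the highest peak on chrM, chrUn_gl000220 and chrUn_gl000226 for each strand on a log scale, with a point per library. The chrM folds differ between replicates of a time by more than the inter-copy folds of chrUn_gl000220, whose 4 forward values lie between 2507 and 3053.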

How the data were processed

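END-seq peak lists of 4 treated libraries were used, a forward and a reverse list each. Per the study's methods, the authors trimmed paired reads, aligned them to hg19 with Bowtie2, kept properly paired reads of high mapping quality with duplicates, and called peaks with MACS2 per library and strand, with untreated samples as input and local background estimation turned off. The deposited columns are a score, the fold of the summit (a ratio to the expected height), and −log10 p and −log10 q values. Each fold of a list goes with 1 p-value, so the expected height is the same at every position and these values hold no position-specific control signal. Read totals were not used here, and the expected height recovered from the fold values, 0.727 to 1.44 reads, serves as a measure of depth.

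Members and lists were chosen with earlier results of these data known. Contigs were named by peak number, density and change in share, and clusters by their worst rank over the libraries. Lengths are bases other than N in GRCh37. For haplotypes and chrM the largest peak end was used. Overlaps were found with bedtools 2.31.1, sequences read with samtools 1.23.1, and copies and landmarks found with blastn 2.17.0 against the genome and the GENCODE release 44 transcripts. Groups were compared by exact permutation tests, which allow no p below 0.333 for 2 against 2 libraries and none below 0.125 for the signs of 4, so no comparison could pass a threshold of 0.05. Shares carry 95% Wilson intervals, which cover counting error only. Functions were tested on simulated data. The sequence under 1 reverse summit is not reported here. The blacklist and read-count filters of the study were not repeated.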

Additional observations from a re-analysis of the deposited data

How the results depend on the processing

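With 2 libraries per time no test could pass a threshold, so settings were compared by direction only. The contig share difference of 0.19 (log2) became -0.070 with all lists limited to the smallest and ranged from -0.081, without CPT20 replicate 2, to 0.41 when 1 library was left out. The chrUn_gl000220 share difference of 0.44 became -0.026 with limited lists and ranged from -0.020, without the same library, to 0.79. The density over all contigs except chrM, 0.172 times that of the chromosomes, became 1.02 on listed unplaced and random contigs only and 0.909 on all of them, settings chosen after seeing the data, and 0.762 for peaks whose −log10 q reached 10. It ranged from 0.158 to 0.179 when 1 library was left out. The density of chrUn_gl000220, 2.83 times, ranged from 2.39 to 3.08, and was 4.24 with limited lists, 4.32 for peaks whose −log10 q reached 3, 20.7 where it reached 10 and 9.52 by bases covered. The log2 difference in the number of sites on contigs, -0.46, was -0.10 with limited lists. It ranged from -0.94 to -0.11 when 1 library was left out. The order ratio, 1.06, became 0.999 for pairs under 50 bp apart and 1.004 for pairs under 500 bp apart. It was 1.17 with limited lists and 1.26 for peaks whose −log10 q reached 3 (exact sign-flip p = 0.125). When 1 library was left out it ranged from 1.02 to 1.11. It could not be computed with a −log10 q of at least 10, where a library had no pair of 1 order. Persistent clusters on contigs fell from 75 to 28 with a −log10 q of at least 10, a limit that 2.17% to 15.5% of all peaks of a library reached. Their share of all persistent clusters at that limit is not given here. With same-numbered replicates paired (replicate block), the log2 differences were 0.17 for the contig share, 0.40 for the chrUn_gl000220 share and -0.49 for sites. The contig share difference was -0.039 within replicate 1 and 0.37 within replicate 2, so the replicates differed in direction. The methods list 2 experiments, each with untreated cells and both times. All other settings kept the direction.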
